A study of Mus musculus with 6 samples.

Results

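The genes described here carry proteins into and out of the endoplasmic reticulum: 50 genes of the signal recognition particle, the Sec61 channel, the signal peptidase, the COPII coat and the cargo receptors of COPII vesicles. They were taken by symbol from a list that was chosen by the expression differences of this same comparison, and all 50 were found among the 54532 genes of each table. Their counts and values are therefore given as a description. RNA-seq was done on the livers of 6 male C57BL/6J mice, adults of 8 weeks, 3 whose fathers had received saline (paternal saline) and 3 whose fathers had received nicotine (paternal nicotine). The study's title concerns liver fibrosis in offspring after paternal nicotine, and the labels give the offspring no treatment of their own. The number of fathers and litters is unknown here, so a p-value covers no more than the spread among the 6 animals. Levels are in RPKM, reads scaled by gene length and by the size of the library. A gene was tested when its 6 libraries averaged 1 RPKM or more, which held for 47 of the 50 genes and for 8773 genes in all.

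Most secreted proteins of the hepatocyte, among them albumin and the clotting factors, begin with a signal sequence that the signal recognition particle binds as it leaves the ribosome. The ribosome is passed to the Sec61 channel, the chain enters the endoplasmic reticulum and the signal peptidase removes the signal. Folded cargo leaves in vesicles that the GTPase Sar1 starts, the Sec23-Sec24 inner coat fills with cargo and the Sec13-Sec31 outer coat closes, while p24 proteins, lectins and KDEL receptors sort or return cargo.

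Promoter sequences are shown for 6 of the genes because they span the outcomes: 4 genes that were higher in paternal nicotine (Tmed3, Srprb, Ssr1 and Tmed9), the 1 that was lower (Sar1b), and Sec24d, which had a large fold change but did not pass. Each is the 250 bases before the RefSeq start on GRCm38.p6, 5′ to 3′ on the gene's own strand. Capitals mark 2 motifs on either strand, TGACGTG being the longer one. The shorter motif is CCACG, and read from the other strand it appears in reverse complement. The longer motif followed by G contains that complement, so the matches then overlap. The windows lie at chr9:89705044-89705293, minus strand (Tmed3), chr9:103202066-103202315, minus strand (Srprb), chr13:37994209-37994458, minus strand (Ssr1), chr13:55592885-55593134, plus strand (Tmed9), chr11:51763413-51763662, plus strand (Sar1b) and chr3:123267246-123267495, plus strand (Sec24d).
Tmed3: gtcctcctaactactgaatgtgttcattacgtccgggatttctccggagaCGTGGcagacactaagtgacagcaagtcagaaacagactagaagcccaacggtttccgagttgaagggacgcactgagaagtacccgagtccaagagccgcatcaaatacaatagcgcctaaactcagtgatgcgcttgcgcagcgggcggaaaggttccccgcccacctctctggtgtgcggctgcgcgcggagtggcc
Srprb: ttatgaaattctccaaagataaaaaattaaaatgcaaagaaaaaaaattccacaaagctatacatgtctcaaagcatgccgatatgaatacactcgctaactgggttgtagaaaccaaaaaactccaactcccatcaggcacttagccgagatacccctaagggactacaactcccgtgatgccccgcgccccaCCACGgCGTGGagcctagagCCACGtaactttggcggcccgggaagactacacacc
Ssr1: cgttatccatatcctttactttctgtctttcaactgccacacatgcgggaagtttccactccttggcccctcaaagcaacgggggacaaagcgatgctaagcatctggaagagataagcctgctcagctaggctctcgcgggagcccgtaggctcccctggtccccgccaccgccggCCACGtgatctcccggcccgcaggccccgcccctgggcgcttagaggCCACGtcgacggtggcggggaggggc
Tmed9: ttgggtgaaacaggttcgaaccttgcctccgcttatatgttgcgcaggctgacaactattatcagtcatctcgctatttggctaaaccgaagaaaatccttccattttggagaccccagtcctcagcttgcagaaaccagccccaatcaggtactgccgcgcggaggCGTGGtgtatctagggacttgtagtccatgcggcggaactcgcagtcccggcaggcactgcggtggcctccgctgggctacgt
Sar1b: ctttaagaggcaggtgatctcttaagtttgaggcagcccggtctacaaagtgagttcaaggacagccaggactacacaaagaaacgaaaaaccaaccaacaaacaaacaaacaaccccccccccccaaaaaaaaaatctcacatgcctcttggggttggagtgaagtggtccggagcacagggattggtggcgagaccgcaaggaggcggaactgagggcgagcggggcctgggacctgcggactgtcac
Sec24d: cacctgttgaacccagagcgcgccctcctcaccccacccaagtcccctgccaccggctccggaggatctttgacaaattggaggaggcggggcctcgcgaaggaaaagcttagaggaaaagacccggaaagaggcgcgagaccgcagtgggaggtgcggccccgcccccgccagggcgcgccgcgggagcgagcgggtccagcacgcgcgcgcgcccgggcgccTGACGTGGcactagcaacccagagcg

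The motifs are those of the unfolded protein response, in which the factors Xbp1 and Atf6 act on secretory genes. RefSeq windows of 300 bases, from 250 before to 50 after the start, were matched for 40 of the 50 genes, in 44 windows. CCACG, searched on both strands, stood in 30 of the 44 windows (68.2%), against 32.8% of all 32851 windows and 47.6% of the windows of the other tested genes. Among the genes that were higher in paternal nicotine it stood in 8 of 13 windows (61.5%), and among those that did not pass or were not tested in 22 of 30 (73.3%). The genes shown include Srprb with 3 matches, Ssr1 with 2 and Sar1b with none. TGACGTG stood in 4 of the 44 windows (9.09%), against 2.01% of all windows and 2.88% of those of other tested genes. These were the windows of Sec16b, Sec24d, Sec23a and Kdelr3, none of which was called. In Sec24d its first base lay 26 bases before the RefSeq start, within the gene as GENCODE M21 draws it, and in Sec23a it lay outside the 250 bases before the start. The full stress element, CCAAT then 9 bases of any kind then CCACG, was in 0 of the 44 windows and in 0.119% of all windows. Its second form, ATTGG then 1 base of any kind then CCACG, was in 0 of the 44 and in 0.0365% of all. CCACG is contained in both elements. The median GC content was 57.4% in these windows and 59.6% in those of other tested genes, and a match of letters is a description, not a site of binding.

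Across the list, 17 genes were higher in paternal nicotine, 1 was lower and 29 did not pass limma's test at an adjusted p of 0.05, adjusted over all 8773 genes. Over all tested genes 9.28% passed in either direction, 3.89% higher and 5.39% lower. The 17 were Tmed3, Tmed9, Sec61b, Sec61a1, Sec23b, Sec61g, Srprb, Ssr1, Kdelr2, Surf4, Ssr3, Sec13, Srp68, Ssr2, Tmed10, Sec11c and Tmed4, and the 1 lower was Sar1b. A positive fold change was seen in 41 of the 47, against 47.3% of all tested genes. The 3 nicotine libraries lay above the 3 saline libraries in 31 of the 47 and below in 1, against 14.4% and 19.2% of all tested genes. The median log2 fold change was 0.38 over the 47 and -0.02 over all tested genes, computed on log2(RPKM + 1), a scale that shrinks the change of genes at low levels. In bulk tissue fewer cells of a type and less RNA per cell cannot be told apart.

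**Figure D1:**
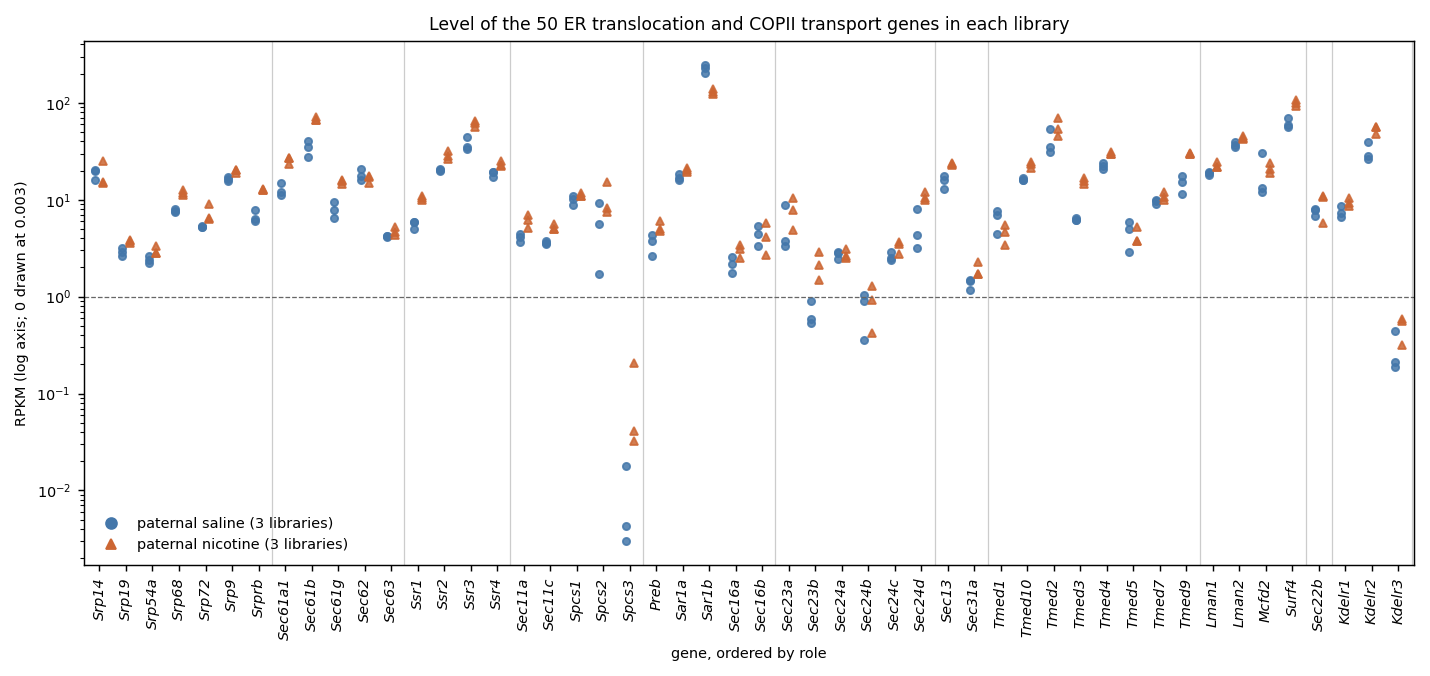
RPKM of the 50 genes in each of the 6 libraries on a log axis, ordered by role with grey lines between roles (circles, 3 paternal saline libraries; triangles, 3 paternal nicotine libraries; a level of 0 is drawn at 0.003; the dashed line is 1 RPKM). Sar1b is the highest gene and the only tested one whose triangles all lie below its circles, while in 31 of 47 tested genes they all lie above.

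Library totals were 61837267 to 70089315 reads, with 8383 to 8994 genes at 1 RPKM or more. Paternal nicotine replicate 2 stood apart: 30 pancreatic acinar genes summed to 5196 RPKM there and to 3.24 to 5.40 RPKM in the other 5 libraries, with 28 of the 30 highest in it and 24 at 0 in at least 5 libraries. The 10 hepatocyte markers summed to 33793 to 40870 RPKM with paternal saline and 23922 to 26471 RPKM with paternal nicotine. Alb, the largest part of that sum, lay lower with nicotine (19914 to 28635 against 11098 to 12486 RPKM), as did Ttr, Apoa2 and Cps1, while Fgb (991 to 1747 against 3819 to 5413 RPKM) and Trf lay higher and Apoa1, Apob, Serpina1a and Hnf4a overlapped. The sum of 14 neutrophil genes ranged from 7.27 to 11.5 RPKM in paternal saline and from 228 to 271 RPKM in paternal nicotine, with no gene of the list at 0 in all libraries. Most of the nicotine sum was Lcn2, a gene that injured hepatocytes also express, at 0.906 to 3.85 RPKM and 165 to 243 RPKM. S100a8 was at 1.72 to 2.94 and 18.3 to 37.1 RPKM. Retnlg, Mmp8, Mmp9, Elane, Cxcr2 and Ly6g also lay higher with nicotine, at lower levels. S100a9, Csf3r, Mpo, Camp, Ngp and Ltf overlapped between the groups. Cholangiocyte markers (8 genes) summed to 9.82 to 12.1 RPKM and 20.7 to 21.9 RPKM, most of it from Sox9 (1.25 to 2.37 and 5.53 to 9.28 RPKM) and Spp1 (4.62 to 6.44 and 8.44 to 10.8 RPKM), while Epcam, Krt19, Krt7, Cftr and Krt23 overlapped. Mitochondrial transcripts took 18.6% to 19.16% and 14.98% to 17.16% of all RPKM. Macrophage (12 genes), T and NK cell (13), plasma and B cell (14), endothelial (10) and stellate cell (12) sums overlapped between the groups, with macrophage and T and NK cell sums highest in paternal nicotine replicate 3, at 1376 and 22.6 RPKM. The part of these differences in the results below was not tested. Without paternal nicotine replicate 2 the median log2 fold change of the 47 genes was 0.39, but the count of genes called higher was 2 instead of 17. It was 3 without paternal saline replicate 1, 7 without saline replicate 3, 3 without nicotine replicate 1 and 10 without nicotine replicate 3. Without saline replicate 2, 13 of the 17 were still called higher and 2 others, Mcfd2 and Sec24d, were added. Sec11c, Sec23b, Ssr2 and Tmed10 no longer passed in that fit. Counts over all genes fell as well, from 341 higher to between 90 and 299 with any 1 library left out. Over all settings tried the count of these genes called higher ranged from 2 to 21, as plotted for each setting.

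**Figure D2:**
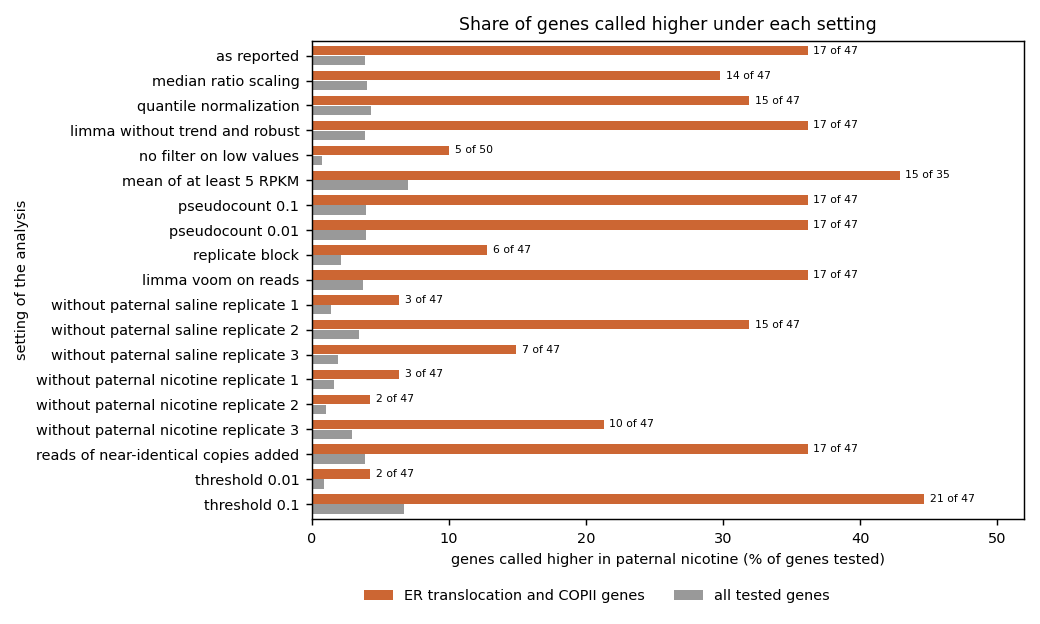
Share of tested genes called higher in paternal nicotine under each setting of the analysis (orange, the ER translocation and COPII genes, with counts; grey, all tested genes). The share of these genes ranges from 4.26% to 44.7% and lies above that of all tested genes in each setting shown.

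**Figure D3:**
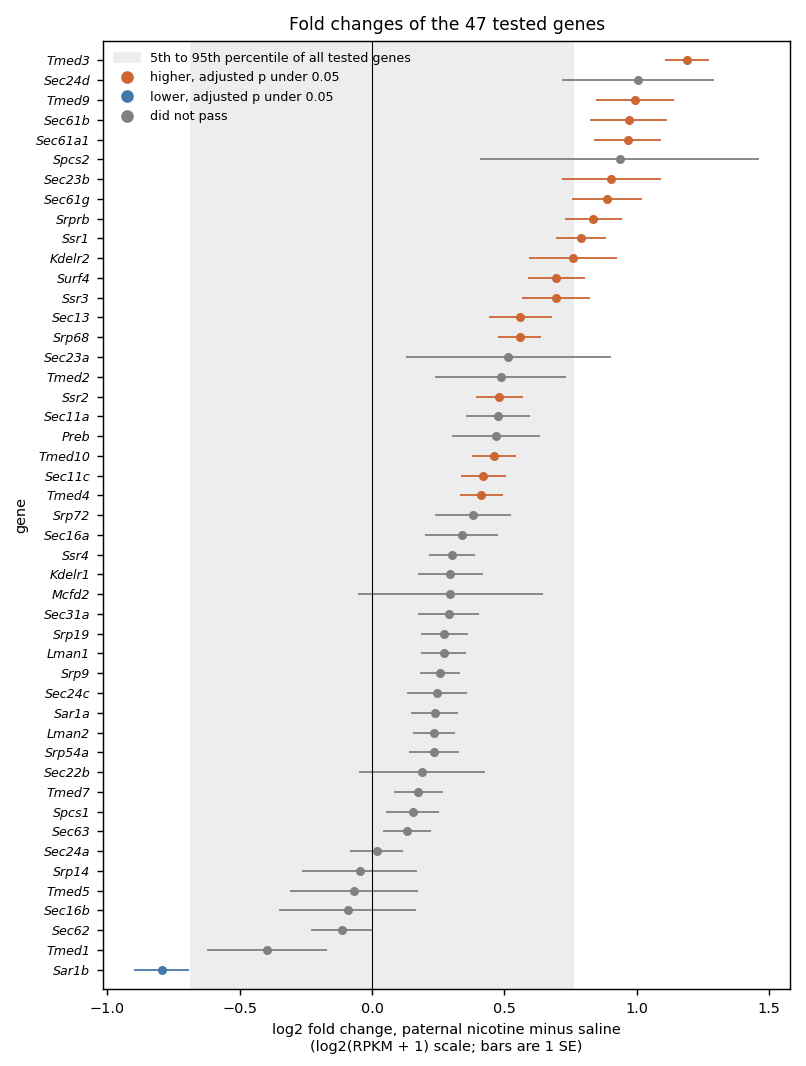
Log2 fold change (paternal nicotine minus paternal saline, log2(RPKM + 1) scale) of the 47 tested genes, with bars of 1 SE; colour shows the limma call and the grey band spans the 5th to 95th percentile of all tested genes. Tmed3 lies highest at 1.19, Sar1b lowest at -0.80, and Sec24d and Spcs2 have wide bars.

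In the signal recognition particle and its receptor, 2 of 7 tested genes rose, Srprb and Srp68, and 5 did not pass. Srprb, the membrane-anchored beta subunit of the receptor, was at 6.02, 7.83 and 6.39 RPKM in paternal saline replicates 1 to 3 and at 13.0, 12.6 and 12.7 RPKM in paternal nicotine replicates 1 to 3. All nicotine libraries lay well above all saline libraries, and within paternal nicotine the values were close together. The log2 fold change was 0.84 (SE 0.11, adjusted p = 0.0113 by limma). Levels of later genes are given in the same order of libraries, paternal saline first. Srp68, which with Srp72 forms the largest protein pair of the particle, was at 7.70, 7.96 and 7.54 RPKM with saline fathers and 12.7, 11.3 and 11.7 RPKM with nicotine fathers. Its groups were each tight and did not overlap, with a log2 fold change of 0.56 (SE 0.08, adjusted p = 0.0148 by limma). Its partner Srp72 had a log2 fold change of 0.38 (SE 0.14, adjusted p = 0.159 by limma), with nicotine replicate 3 at 9.09 RPKM above the 6.41 and 6.30 RPKM of the other two. By log2 fold change, the remaining subunits were Srp9 at 0.26, Srp19 at 0.27, Srp54a, the subunit that binds the signal sequence, at 0.23, and Srp14, the partner of Srp9, at -0.05. Srp14 alone of the 7 had overlapping groups, with nicotine replicate 3 at 25.1 RPKM above and nicotine replicates 1 and 2 below all saline libraries. The summed level of the 7 genes was 60.1 ± 1.22 RPKM with paternal saline and 76.8 ± 7.62 RPKM with paternal nicotine (mean ± SD, n = 3 each).

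The Sec61 channel had the largest ratio of summed levels of any role. Its 5 genes summed to 76.6, 85.4 and 70.5 RPKM in the saline libraries and 131, 127 and 133 RPKM in the nicotine libraries. The nicotine libraries lay close together and far above the saline libraries, a ratio of means of 1.68. All 3 subunits of the channel itself rose. Sec61a1, the pore-forming alpha subunit, was at 12.04, 15.0 and 11.3 RPKM with paternal saline and 26.9, 23.4 and 27.0 RPKM with paternal nicotine. No value of one group came near the other, and the log2 fold change was 0.97 (SE 0.13, adjusted p = 0.0120 by limma). Sec61b, the beta subunit, was at 34.8, 40.8 and 27.8 RPKM and 65.8, 66.4 and 71.2 RPKM in the same order. Saline replicate 2 was the highest and saline replicate 3 the lowest of the controls, still below every nicotine library, with a log2 fold change of 0.97 (SE 0.14, adjusted p = 0.0162 by limma). Sec61g, the gamma subunit, was at 7.76, 9.39 and 6.54 RPKM and 15.9, 14.5 and 15.6 RPKM, again with no overlap. Its log2 fold change was 0.89 (SE 0.13, adjusted p = 0.0164 by limma). Sec62 and Sec63, which work beside the channel on chains that enter after translation, did not pass, at log2 fold changes of -0.11 and 0.13. Sec62 ranged from 16.1 to 20.6 RPKM in paternal saline and from 15.0 to 17.6 RPKM in paternal nicotine, which overlapped.

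The signal sequence receptor, or TRAP, complex sits next to the channel and helps some chains to enter. Of its 4 genes 3 rose, Ssr1, Ssr2 and Ssr3, and in all 4 the nicotine libraries lay above the saline libraries. Ssr1, the alpha subunit, was at 5.88, 5.94 and 5.02 RPKM with saline fathers and 10.9, 10.5 and 9.90 RPKM with nicotine fathers. The groups were separated by far more than their spread, and the log2 fold change was 0.79 (SE 0.09, adjusted p = 0.00865 by limma). Ssr3, the gamma subunit, was at 33.1, 44.1 and 35.3 RPKM and 55.9, 64.5 and 62.7 RPKM. Saline replicate 2 stood above the other controls but below all nicotine libraries, and the log2 fold change was 0.69 (SE 0.13, adjusted p = 0.0276 by limma). Ssr2, the beta subunit, was at 19.8, 20.7 and 20.3 RPKM and 31.6, 26.3 and 28.5 RPKM. The controls were close together and nicotine replicate 1 was the highest, with a log2 fold change of 0.48 (SE 0.09, adjusted p = 0.0282 by limma). Ssr4, the delta subunit on the X chromosome, had a smaller log2 fold change, 0.30 (SE 0.09, adjusted p = 0.0871 by limma), and did not pass. The 4 genes summed to 82.2 ± 7.0 RPKM with paternal saline and 124 ± 2.48 RPKM with paternal nicotine.

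In the signal peptidase, 1 of 4 tested genes rose. Sec11c, a catalytic subunit, was at 3.61, 3.73 and 3.47 RPKM with saline fathers and 5.62, 4.94 and 4.95 RPKM with nicotine fathers. The groups did not overlap, and the log2 fold change was 0.42 (SE 0.08, adjusted p = 0.0356 by limma). The call was lost in 11 of the 17 alternative settings in which Sec11c was tested, the other scalings among them. The other catalytic subunit, Sec11a, had a log2 fold change of 0.48 (SE 0.12, adjusted p = 0.0666 by limma) without passing, and its share of the summed level of the pair, 52.9% and 53.9%, overlapped between the groups. Spcs2, an accessory subunit, was at 9.25, 1.72 and 5.55 RPKM and 7.53, 8.25 and 15.2 RPKM. These values were scattered in both groups and overlapped, with saline replicate 2 far below and nicotine replicate 3 far above the rest. The log2 fold change was 0.94 (SE 0.53, adjusted p = 0.328 by limma). Spcs1, a small accessory subunit, had a log2 fold change of 0.15 with overlapping groups. Spcs3, which the complex needs for activity in yeast, was not tested: it was listed at 0, 0.00431 and 0.0180 RPKM and 0.204, 0.0325 and 0.0412 RPKM, with 0 to 44 reads per library.

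**Figure D4:**
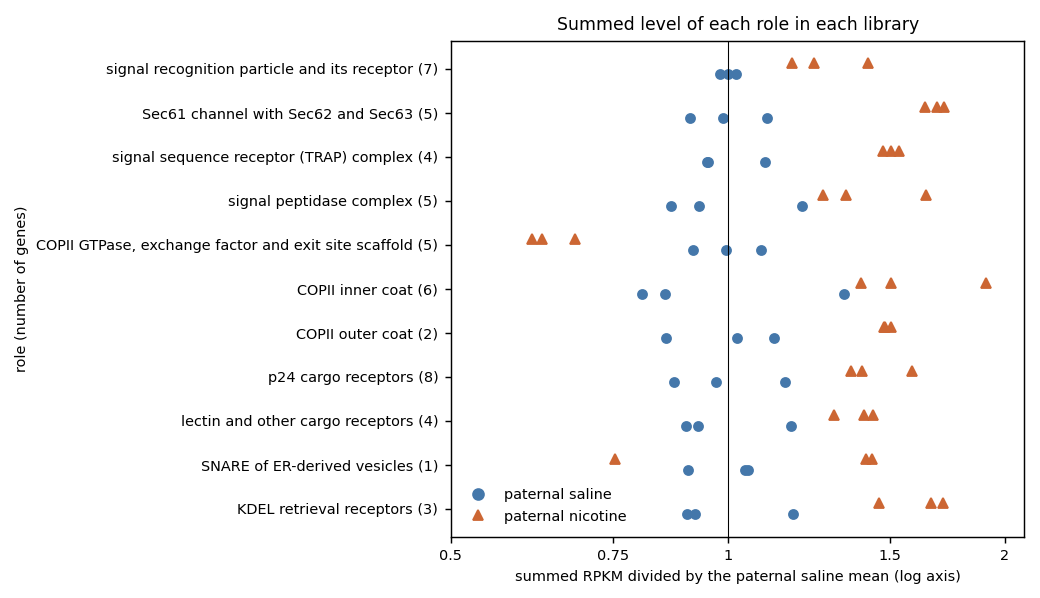
Summed RPKM of each role in each library, divided by the mean of the 3 paternal saline libraries, on a log axis (circles, paternal saline; triangles, paternal nicotine; number of genes in brackets). The nicotine libraries lie above the saline libraries in 9 of 11 roles, below them in the role that holds Sar1b, and overlap for the single SNARE gene.

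Sar1b was the exception in direction. Its product is the GTPase whose GTP-bound form inserts into the membrane and recruits the inner coat. The gene (GENCODE M21 on GRCm38, chr11:51763687-51791925, plus strand) was at 248, 204 and 228 RPKM with saline fathers and 140.2, 122 and 129 RPKM with nicotine fathers. Every nicotine library lay below every saline library, with 11946 to 24229 reads per library behind the values. It fell by 0.80 on the log2 scale (SE 0.10, adjusted p = 0.0117 by limma), and without paternal nicotine replicate 2 the fold change was -0.75 (adjusted p = 0.0576 by limma). Sar1b had the highest level of all 50 genes, also when reads were divided by the merged exon length instead of the summed length of all transcripts. The summed level of all 50 genes went from 835 ± 48.2 to 1014 ± 41.9 RPKM, a ratio of 1.21. Without Sar1b the sum went from 608 ± 62.7 to 884 ± 38.5 RPKM, a ratio of 1.45, a sum chosen after its values were seen.

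Its paralog Sar1a, a second Sar1 GTPase, did not pass and lay in the other direction. Sar1a had a log2 fold change of 0.24 (SE 0.09, adjusted p = 0.161 by limma), with nicotine libraries at 19.3, 20.1 and 21.3 RPKM above saline libraries at 16.7, 18.5 and 15.9 RPKM. The share of Sar1a in the summed RPKM of the pair was 6.32, 8.32 and 6.49% in the saline libraries and 12.1, 14.2 and 14.2% in the nicotine libraries. The groups did not overlap, and the same was true with merged exon lengths, where the mean share went from 9.56% to 17.9%. The other genes of this role did not pass. Preb, the exchange factor that loads Sar1 with GTP, had a log2 change of 0.47 (SE 0.17, adjusted p = 0.141 by limma), and Sec16a and Sec16b, scaffolds of the exit site, had log2 fold changes of 0.34 and -0.09 with overlapping groups.

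The inner coat pairs Sec23, which activates the GTPase of Sar1, with Sec24, which binds cargo. Of its 5 tested genes only Sec23b passed. Sec23b was low, at 0.906, 0.530 and 0.583 RPKM with saline fathers and 2.89, 2.13 and 1.49 RPKM with nicotine fathers, from 407 to 2059 reads. Both groups were spread but did not overlap, and the log2 fold change was 0.90 (SE 0.19, adjusted p = 0.0384 by limma). With a pseudocount of 0.01 in place of 1 it was 1.66, as the ratio of means of 3.22 also shows. Sec23a, its more abundant paralog, was at 3.75, 8.75 and 3.35 RPKM and 10.4, 4.87 and 7.80 RPKM. Saline replicate 2 lay among the nicotine libraries, the groups overlapped, and the log2 fold change of 0.51 (SE 0.39, adjusted p = 0.457 by limma) did not pass. The share of Sec23b in the pair was 19.4, 5.72 and 14.8% in the saline libraries and 21.8, 30.4 and 16.0% in the nicotine libraries, which overlapped.

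Sec24d did not pass, although on the log2(RPKM + 1) scale its fold change was second to Tmed3; by the ratio of means, 2.08, it also came after Sec23b. It was at 4.30, 8.06 and 3.16 RPKM with saline fathers and 12.02, 10.4 and 9.88 RPKM with nicotine fathers. Saline replicate 2 was far above the other controls, and all nicotine libraries lay higher still. The log2 fold change was 1.01 (SE 0.29, adjusted p = 0.0901 by limma), and without paternal saline replicate 2 it was 1.32 with an adjusted p of 0.0154 by limma. That fit was the most favourable of 18 alternative settings. Over them the fold change of Sec24d ranged from 0.76 to 1.32 and its adjusted p from 0.0154 to 0.219 by limma. Sec24a and Sec24c, its relatives, had log2 fold changes of 0.02 and 0.25, both with overlapping groups. Sec24b, at 0.894, 0.357 and 1.03 RPKM and 0.9304, 0.420 and 1.30 RPKM, was under the filter and overlapped. The share of Sec24d among the 4 Sec24 genes was 42.9, 58.7 and 31.8% in the saline libraries and 61.6, 61.4 and 59.7% in the nicotine libraries. Saline replicate 2 came close to the nicotine libraries, which all lay above, while the share of Sec24a, 24.1, 20.4 and 28.9% in the saline libraries and 16.0, 14.8 and 15.8% in the nicotine libraries, lay below in all 3. With merged exon lengths the order of the groups was the same for both.

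**Figure D5:**
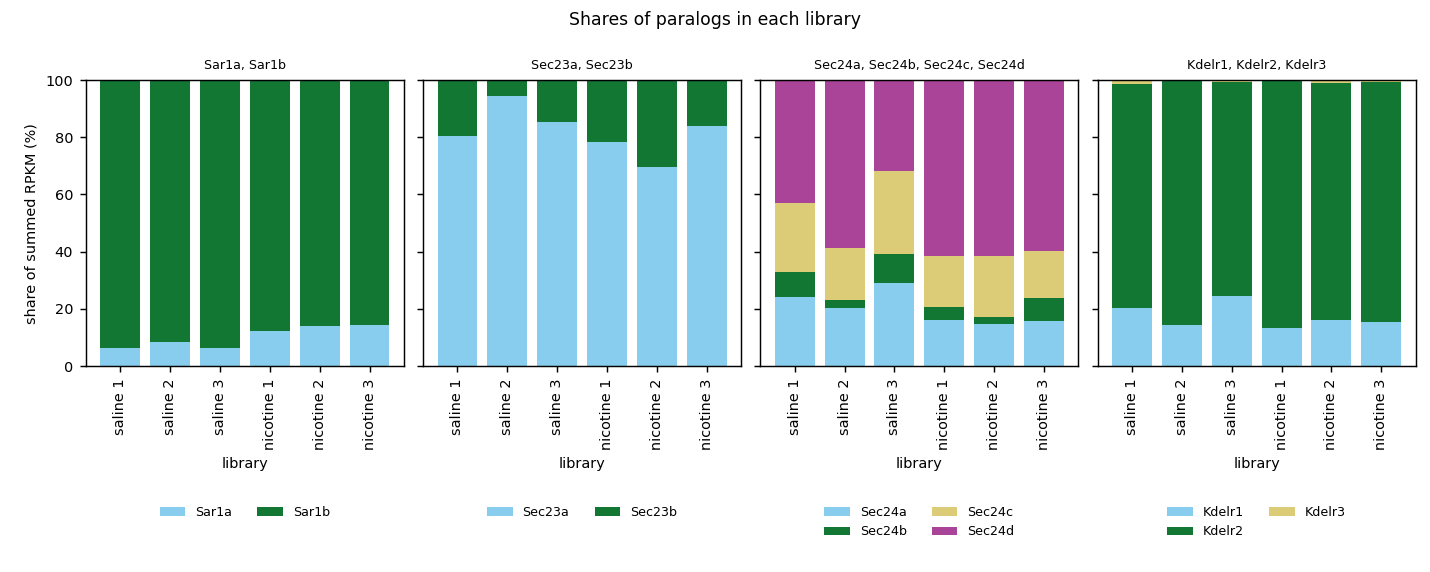
Share of each paralog in the summed RPKM of its set in each library (stacked bars from 0 to 100%; one panel each for Sar1, Sec23, Sec24 and the KDEL receptors). Sar1a takes 6.32% to 8.32% of its pair in paternal saline and 12.1% to 14.2% in paternal nicotine, and Sec24d takes 59.7% to 61.6% of its set in all 3 nicotine libraries. The shares depend on the gene length used, and with merged exon lengths that of Kdelr2 is smaller in every library.

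Of the outer coat, Sec13 rose. This subunit, which the coat shares with the nuclear pore, was at 16.1, 17.5 and 13.0 RPKM with saline fathers and 22.7, 23.3 and 23.7 RPKM with nicotine fathers. The nicotine libraries were nearly equal and lay above all saline libraries, with a log2 fold change of 0.56 (SE 0.12, adjusted p = 0.0406 by limma). Its partner Sec31a had a log2 change of 0.29 (SE 0.12, adjusted p = 0.180 by limma) and did not pass, although its groups did not overlap.

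Among the p24 cargo receptors, which cycle between the endoplasmic reticulum and the Golgi, 4 of 8 rose. Tmed3, of the gamma subfamily, had the highest fold change of the 47 genes on the log2(RPKM + 1) scale, while by the ratio of means Sec23b was higher (3.22). The gene (chr9:89699206-89705068, minus strand) was at 6.18, 6.43 and 6.23 RPKM with saline fathers and 14.7, 15.4 and 16.8 RPKM with nicotine fathers. Each group was tight, with all nicotine libraries far above any saline library, and the ratio of means was 2.49. The log2 fold change was 1.19 (SE 0.08, adjusted p = 0.00267 by limma), and Tmed3 was the only 1 of the 18 called genes that passed in each of 18 alternative settings. Tmed9, of the alpha subfamily, was at 15.3, 17.4 and 11.6 RPKM and 29.8, 29.8 and 30.6 RPKM. The nicotine values were nearly the same in all 3 animals and far above the more variable controls, with a log2 fold change of 0.99 (SE 0.15, adjusted p = 0.0162 by limma). Tmed10, the delta member, was at 16.1, 16.9 and 16.0 RPKM and 23.2, 21.1 and 24.3 RPKM. Its groups did not overlap, and its log2 fold change was 0.46 (SE 0.08, adjusted p = 0.0262 by limma). Tmed4, another alpha member, was at 22.5, 24.1 and 20.8 RPKM and 29.8, 29.4 and 31.5 RPKM. The nicotine libraries again lay above, by less than in Tmed3 and Tmed9, with a log2 fold change of 0.41 (SE 0.08, adjusted p = 0.0351 by limma). Tmed2, the beta member, had a log2 change of 0.49 (SE 0.25, adjusted p = 0.286 by limma) with saline replicate 2 among the nicotine libraries. Tmed7 and Tmed5 had log2 fold changes of 0.18 and -0.07, and Tmed1 had a log2 change of -0.40 (SE 0.23, adjusted p = 0.336 by limma); the groups overlapped in Tmed5 and Tmed1. The gamma members therefore ranged from -0.40 for Tmed1 to 1.19 for Tmed3, and the 8 genes summed to 120.4 ± 17.1 RPKM with paternal saline and 174 ± 14.3 RPKM with paternal nicotine.

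Of the other cargo receptors, Surf4 rose. Surf4, a membrane receptor that carries lipoproteins and other soluble cargo, was at 56.7, 69.7 and 58.8 RPKM with saline fathers and 100.03, 93.6 and 108 RPKM with nicotine fathers. It was the second highest gene of the list, its groups did not overlap, and its log2 fold change was 0.70 (SE 0.11, adjusted p = 0.0178 by limma). Lman1, the lectin that carries clotting factors V and VIII, had a log2 change of 0.27 (SE 0.08, adjusted p = 0.106 by limma), and Lman2, a second lectin, had a log2 change of 0.23 (SE 0.08, adjusted p = 0.133 by limma). In both, the nicotine libraries lay above the saline libraries without passing. Mcfd2, the partner of Lman1, had a log2 change of 0.30 (SE 0.35, adjusted p = 0.638 by limma); saline replicate 2 at 30.5 RPKM lay above all nicotine libraries and the other controls were at 12.1 and 13.1 RPKM. Without that library it was 0.70 with an adjusted p of 0.0439 by limma, the most favourable of 18 alternative settings. Over them the fold change of Mcfd2 ranged from 0.07 to 0.70 and its adjusted p from 0.0439 to 0.934 by limma. Of known cargos, F5, carried by Lman1 and Mcfd2, had a log2 fold change of 0.15 (adjusted p = 0.422 by limma), and Apob, the protein of the lipoproteins that Surf4 carries, had 0.08 (adjusted p = 0.784 by limma); neither passed.

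Sec22b, the SNARE that fuses these vesicles with the next compartment, was at 7.89, 7.96 and 6.84 RPKM and 10.7, 10.9 and 5.70 RPKM. Nicotine replicate 3 lay below and nicotine replicates 1 and 2 above all controls, and the log2 fold change was 0.19 (SE 0.24, adjusted p = 0.656 by limma). The KDEL receptors return escaped chaperones to the endoplasmic reticulum. Kdelr2 was at 28.5, 39.6 and 26.6 RPKM with saline fathers and 56.5, 47.6 and 56.4 RPKM with nicotine fathers. The groups did not overlap, with saline replicate 2 closest to the nicotine libraries, and Kdelr2 rose with a log2 fold change of 0.76 (SE 0.17, adjusted p = 0.0449 by limma). Kdelr1 had a log2 change of 0.30 (SE 0.12, adjusted p = 0.198 by limma) with groups that overlapped by a small margin. Kdelr3 was not tested, at 0.447, 0.212 and 0.188 RPKM and 0.320, 0.594 and 0.566 RPKM. Kdelr2 took 79.7% ± 5.25 and 84.3% ± 1.77 of the summed level of the receptors, which overlapped. That share depended on the gene length used. With merged exon lengths it was 59.8% ± 8.03 with paternal saline and 67.0% ± 2.82 with paternal nicotine, which also overlapped.

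Taking the roles by stage, the 20 tested genes of targeting, translocation and signal cleavage held 9 that rose and 0 that fell, with a median log2 fold change of 0.45. For that 0, limma voom also called 0 lower and at an unadjusted p under 0.05 there were 0 lower. The 27 tested genes of coat, cargo receptors, fusion and retrieval held 8 that rose and 1 that fell, with a median of 0.30. The difference between these stages was not tested. The spread within groups was near that of other genes: the median pooled SD on the log2 scale was 0.147 over the 47 genes and 0.156 over all tested genes. Spcs2 (0.775), Sec23a (0.566) and Mcfd2 (0.509) were the widest, and Tmed3 was at 0.067. Saline replicate 2 was the highest saline library in 31 of 47 genes, and in 16 of the 18 called genes, against 36.8% of all tested genes, and saline replicate 3 was the lowest in 25. Within paternal nicotine, replicate 1 was the highest in 22 of 47 genes, against 28% of all tested genes, and replicate 3 in 18, against 49.9%. Replicate 2, the library with pancreatic transcripts, was the highest in 7, against 22.1% of all tested genes, and the lowest in 23 of 47. For the lowest library no share over all tested genes was worked out in either group.

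Further genes of the same pathways, from lists drawn up with earlier results known, were counted in the same fit. Of 28 further tested targeting and translocon genes, 3 rose and 1 fell (14.3% called, against 9.28% of all tested genes). Tram1, which lies beside the channel, went from 26.2 ± 1.85 to 43.6 ± 0.866 RPKM, and its log2 fold change was 0.72 (SE 0.08, adjusted p = 0.00772 by limma). Srpr, the alpha subunit of the receptor that Srprb anchors, went from 59.2 ± 7.49 to 90.1 ± 5.84 RPKM with a log2 change of 0.60 (SE 0.11, adjusted p = 0.0286 by limma). Both receptor subunits thus lay higher in every nicotine library than in any saline library. Hspa13, an Hsp70-like protein of microsomes, had a log2 change of 0.74 (SE 0.12, adjusted p = 0.0208 by limma), and Emc9, of the membrane insertion complex, fell by 0.79 on the log2 scale (SE 0.17, adjusted p = 0.0428 by limma). Of 16 further genes of exit sites and COPII cargo, 2 rose and 0 fell (12.5% called, near the 9.28% of all tested genes): Yif1a from 36.9 ± 4.30 to 57.8 ± 0.817 RPKM and Yipf5 from 17.4 ± 1.24 to 26.2 ± 0.406 RPKM, both proteins of vesicles between the endoplasmic reticulum and the Golgi. For the 0, voom called 0 lower and 1 gene was lower at an unadjusted p under 0.05.

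The COPI coat, which returns vesicles from the Golgi, had the most calls of these lists. Of 16 tested COPI and Arf genes 6 rose and 0 fell (37.5% called, against 9.28% of all tested genes), with a median log2 fold change of 0.30. Voom called 5 higher and 0 lower, and at an unadjusted p under 0.05 there were 7 higher and 1 lower. Copa, the alpha subunit, went from 7.12 ± 0.740 to 11.9 ± 0.357 RPKM, and its log2 fold change was 0.67 (SE 0.09, adjusted p = 0.0144 by limma). Cope, the epsilon subunit, had a log2 change of 0.74 (SE 0.11, adjusted p = 0.0144 by limma), Copb2, the beta-prime subunit, had a log2 change of 0.53 (SE 0.09, adjusted p = 0.0238 by limma), and Copg1, a gamma subunit, had a log2 change of 0.76 (SE 0.13, adjusted p = 0.0239 by limma). Of 34 tested genes of tethering and fusion, 1 rose and 0 fell (2.94% called, under the 9.28% of all tested genes). The 1 was the tether Uso1, with a log2 change of 0.55 (SE 0.11, adjusted p = 0.0375 by limma). Voom also called 0 lower, with 1 lower at an unadjusted p under 0.05. Among 11 tested regulators of secretory genes, 2 rose (18.2% called, against 9.28% of all tested genes). Creb3l2, a membrane-bound factor whose targets include COPII genes, went from 2.44 ± 0.332 to 6.24 ± 0.161 RPKM with a log2 change of 1.08 (SE 0.10, adjusted p = 0.00537 by limma). Eif2ak3, the stress sensor PERK, went from 1.63 ± 0.206 to 3.77 ± 0.312 RPKM with a log2 change of 0.86 (SE 0.10, adjusted p = 0.00838 by limma). None fell by limma or voom, and 0 were lower at an unadjusted p under 0.05. Xbp1 had means of 28.1 ± 4.68 and 48.6 ± 9.20 RPKM and did not pass, at a log2 change of 0.76 (SE 0.18, adjusted p = 0.0567 by limma), and Atf4 was at 32.1 ± 3.62 and 32.3 ± 1.83 RPKM; both were named after their values were seen.

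Reads may be shared with copies for some genes, since no source used here says how multiply matching reads were counted. A near-identical stretch (at least 200 bases at 95% identity) in another gene was found for 18 of the 50 genes. An exonic overlap of at least 50 bases with another gene was found for 17. Of the 50, 22 had either, 7 of them among the 18 called: Sec61a1, Sec61b, Sec61g, Srprb, Ssr2, Tmed10 and Surf4. For Preb, Sec11a, Sec23a, Sec61a1, Sec62, Spcs1, Srprb, Tmed1 and Tmed5 the only such stretch was in a gene that overlaps them. It is thus no separate copy and stands in both counts. Reads of overlapping genes were not added below. Whether the counting used strand is not given either, so these levels are uncertain to that extent. The largest copy of a called gene was Gm10177 for Sec61g, at means of 28.8 and 48.2 RPKM in paternal saline and paternal nicotine. With the reads of copies added, an alternative chosen after seeing the data, the log2 fold change was 0.85 for Sec61g, 0.96 for Sec61b and 0.47 for Tmed10, and the same 17 genes were called higher and Sar1b lower. Srp54a, whose copies Srp54b and Srp54c are full-length genes, went from 0.23 to 0.07. Ssr2 shares a stretch with the coding gene Rtraf, whose reads were not added.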

How the data were processed

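Per the labels' protocols, liver RNA was prepared with Trizol and libraries with a TruSeq DNA kit. The authors deposited RPKM values, 1 table per library with 54532 Ensembl genes. The submitters' processing notes name CASAVA, TopHat and mm8; the counter, annotation, strand and treatment of multiply matching reads are not given. GENCODE M21 (GRCm38) supplied symbols and coordinates for 99.93% of the identifiers, and RefSeq (GRCm38.p6) the promoters. Genes without a read hold placeholders of at most 1.6e-08 RPKM, set to 0. In 98.7% of them the placeholder fitted the summed exon length of all transcripts of the gene. Levels of genes that differ in their number of transcripts may thus not be comparable. Ratios of RPKM between libraries are unaffected, but the filter and the log2(RPKM + 1) scale depend on the length used. The deposited length column fitted its own gene in 96 rows (0.18%) and was not used. Library totals also came from the placeholders, and with them 24510 of 25524 genes (96.0%) gave whole reads within 0.01, including 47 of the 50 members.

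Groups of 3 libraries were taken from the labels. Genes averaging 1 RPKM or more (8773) were fitted with limma 3.58.1 in R 4.3.3 (lmFit, then eBayes with trend and robust options) on log2(RPKM + 1). P-values were adjusted over all of them by Benjamini-Hochberg, with a threshold of 0.05. The fit was also run on simulated data with independent noise for each gene. Effects shared within a library or litter were not simulated, so that run cannot judge the calls made here. Errors are SDs over 3 libraries or SEs of the fit. The members, roles, lists and tests were chosen with earlier results of these data known. Every member is named, and called members and the member with the largest absolute fold change of each role are given by library. Other members given by library, and Xbp1 and Atf4, were chosen after their values were seen. Of the further pathway lists, up to 4 called genes of lowest p are named. Get3 and Tmed12 were not matched by symbol. Get1 was matched through a synonym to a different gene, Grhl3, which was under the filter and not tested, so Get1 itself was not examined. Of a list of cargo genes, in which none was called, only F5 and Apob are given, named after their values were seen; the rest is not reported here. Alternatives were other scalings, filters, pseudocounts and thresholds, limma voom on the reads, a replicate block, leaving out each library, and adding the reads of copies (blastn 2.17.0, overlaps with bedtools 2.31.1). Figures were drawn with matplotlib 3.10.9.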

Additional observations from a re-analysis of the deposited data

How the results depend on the processing

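None of the 18 called genes changed sign in any of 18 settings. In these genes the groups did not overlap, so leaving out a library or changing a filter, pseudocount or threshold could not change it. The median log2 fold change of the tested members ranged from 0.31 to 0.48, but of 834 values of single members 109 no longer passed, 6 newly passed and 12 changed sign. Among the called genes, Sec11c no longer passed in 11 of 17 settings, Sec23b in 9 of 17, and Ssr2, Sec13 and Tmed10 each in 9 of 18. The count of 17 genes higher dropped to 5 without a filter on low values (all genes 184 higher and 183 lower), where 3 further members and many low genes were tested, and to 2 at a threshold of 0.01 (74 and 82), where 0 members were lower. At a threshold of 0.1 it was 21 (587 and 824). With 1 library left out it ranged from 2 to 15, all genes from 90 to 299 higher and from 92 to 400 lower, and members lower from 0 to 1, Sar1b being lost without paternal nicotine replicate 2; these fits hold fewer samples. The cause of the other shifts was not tested. Other scalings gave 14 and 15, and moved the median of all genes by under 0.1. The 12 changes of sign were all in genes that did not pass: Sec24a was -0.0014 after quantile normalization and -0.0524 to 0.0628 with a library left out, Srp14 was -0.2791 to 0.0728, Sec16b -0.3075 to 0.135 and Tmed5 -0.3077 to 0.1001.

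The replicate numbers are shared between the groups, but same-numbered libraries did not deviate together (correlations 0.0071, 0.0564 and 0.0494), and not every library correlated best with its own number. With a replicate block 6 members were called higher and 1 lower (all genes 185 and 198).

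Spcs3 and Kdelr3 rested on few reads, 0 to 44 and 17 to 56 per library. Why their counts were low was not tested.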
